A study of Mus musculus with 4 samples.

Results

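The 9 genes described here are the NR4A nuclear receptors Nr4a1, Nr4a2 and Nr4a3, the early growth response (EGR) zinc-finger factors Egr1, Egr2, Egr3 and Egr4, and Nab1 and Nab2, whose proteins bind EGR factors and repress them. They were chosen by gene symbol, 9 of 50600 annotated genes, and all 9 were found once in each table. RNA was measured in 4 libraries of primary mouse T cells of the inbred strain C57BL/6NJ, labelled biological replicates 1 to 4 within a single group. Sex was not collected, age and developmental stage are unknown, and all libraries carry the same donor entry, so nothing states that they came from separate animals. The labels name no treatment. The alignment names inside the deposited files carry the words Th0 (a helper T cell activated without polarising cytokines), activated and 24 h for every library, and a protocol for CD4+ T-cell differentiation is linked. With 1 group there is no resting or untreated sample, so the data give levels, their order and their spread between replicates, and no induction. A p-value here covers only how far these 4 samples spread, and how much of that spread is technical is not known.

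Both families belong to the first wave of genes that a T cell switches on when its antigen receptor is engaged. Calcium, calcineurin and MAP kinase signals act on transcription factors already in the cell, such as SRF with its ETS-type partners, CREB, MEF2 and NFAT, and these bind close to the start sites of the genes. NR4A proteins are orphan receptors that bind DNA without a classical hormone. They are known as reporters of receptor signal strength and for roles in regulatory T cells, tolerance and exhaustion. EGR1 is a broad mitogen-induced activator, EGR2 and EGR3 are known for restraining T-cell responses, and NAB proteins limit EGR activity by recruiting the NuRD chromatin complex.

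Sequences upstream of the start sites are shown first because the NR4A genes share a feature there that the choice of genes did not use. Promoters of 7 of the 9 genes were matched by symbol in a RefSeq table (GRCm38.p6, the same coordinates as mm10), and the 250 bases before each start were searched on both strands. The letters searched were TGACG, the core of the cAMP response element (CRE) bound by CREB-type factors and here called a CRE site, the CArG box bound by SRF, GCGNGGGCG, a core recognised by EGR factors, and AAAGGTCA, the NBRE element bound by NR4A monomers. A palindromic full element would count as a pair of CRE sites, and no other overlap between motifs was removed. Stretches are printed 5′ to 3′ on the gene's strand, with matches in capitals, and stop where an annotated GENCODE vM21 exon begins.
Nr4a1, chr15:101266596-101266845, plus strand: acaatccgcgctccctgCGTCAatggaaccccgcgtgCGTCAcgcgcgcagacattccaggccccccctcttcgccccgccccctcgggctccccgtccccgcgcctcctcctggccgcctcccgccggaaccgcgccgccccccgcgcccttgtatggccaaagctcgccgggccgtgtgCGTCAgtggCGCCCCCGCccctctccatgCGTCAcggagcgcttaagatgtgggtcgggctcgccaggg
Nr4a2, chr2:57124004-57124253, minus strand: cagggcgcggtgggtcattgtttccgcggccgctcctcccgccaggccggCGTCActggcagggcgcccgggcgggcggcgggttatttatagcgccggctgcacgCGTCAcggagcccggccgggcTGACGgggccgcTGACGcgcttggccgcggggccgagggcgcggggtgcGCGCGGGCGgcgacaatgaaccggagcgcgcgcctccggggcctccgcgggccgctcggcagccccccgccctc
Nr4a3, chr4:48045055-48045152, plus strand: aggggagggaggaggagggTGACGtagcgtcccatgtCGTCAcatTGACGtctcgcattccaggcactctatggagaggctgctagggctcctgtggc
Egr2, chr10:67537619-67537868, plus strand: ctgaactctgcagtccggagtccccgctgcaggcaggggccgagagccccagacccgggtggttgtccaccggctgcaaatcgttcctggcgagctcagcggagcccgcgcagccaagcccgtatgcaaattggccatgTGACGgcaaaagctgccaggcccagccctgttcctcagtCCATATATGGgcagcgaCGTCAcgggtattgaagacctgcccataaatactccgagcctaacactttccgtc
Egr4, chr6:85513590-85513839, minus strand: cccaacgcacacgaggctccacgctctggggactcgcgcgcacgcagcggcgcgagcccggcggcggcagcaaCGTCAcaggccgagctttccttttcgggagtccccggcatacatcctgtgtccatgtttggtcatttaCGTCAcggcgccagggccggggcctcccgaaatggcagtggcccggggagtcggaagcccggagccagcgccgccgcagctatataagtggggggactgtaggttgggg

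Each of the 3 NR4A promoters held 4 CRE sites in its 250 bases, and the last of those in Nr4a3 lies inside an annotated exon and is not printed. Of 32841 RefSeq windows of the same length, 45 held 4 or more (0.137%), and 17.8% held at least 1. Egr4 held 2 CRE sites, as did the Egr2 window shown, against 3.90% of windows with 2 or more. The Egr2 window also held a CArG box, a motif present in 1.47% of windows. RefSeq gives 5 start sites for Egr2, and the windows of 3 of them overlap and share these matches. The window 67537316 to 67537565 held another CArG box, and the one farthest upstream held none of the motifs. An EGR core stood in the windows of Nr4a1 and Nr4a2, 1 in each, and the Nab1 window held 3, against 4.70% of windows with any and 0.140% with 3 or more. In the Nab1 window 231 of the 250 bases lie inside annotated exons, and all 3 of its EGR cores are among them. The Nab2 window held none of the 4 motifs, and the NBRE was found in none of the windows of these 7 genes. These windows are rich in G and C (54.0% to 80.8%), and the motifs contain CG. A match describes letters in a window and no bound site. No window of Egr1 or Egr3 was searched, so the motif counts say nothing about either gene. Nr4a1 and Nr4a2, with the same count of CRE sites and EGR cores, lay at opposite ends of their family in level.

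The libraries held 47558517 to 273136467 gene-assigned fragments, and replicate 2 was the deepest. No library had any of the 10 T-cell markers checked below 10 TPM, and Cd4 stood at 697 ± 37.9 TPM (SD, n = 4). TPM is a transcript level scaled by exon length and library total. Of 16 markers of B, myeloid, natural killer, CD8+, red and stromal cells, 13 were below 1 TPM in every library, and Csf1r, Klrb1c, Hba-a1 and Pdgfra had no fragment. The summed level of the 16 ran from 4.83 to 8.61 TPM, and the B-cell gene Cd79b had 1.57 ± 0.510 (SD, n = 4). Xist, transcribed from an inactive X chromosome, was at 163 and 150 TPM in replicates 1 and 2 and at 0.715 and 0.696 in replicates 3 and 4. The Y-linked gene Ddx3y showed the opposite pattern (0.0434, 0.0219, 38.8 and 39.3 TPM). The libraries thus carry RNA of both sexes and did not all come from 1 animal, despite their shared donor entry.

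Transcripts of 7 of the 9 genes stood at 10 TPM or more in every library, a level that 16.0% of all annotated genes reached. At 1 TPM or more in every library there were 8 of the 9, against 22.7% of all genes, and Egr4 fell short in replicate 1. Both shares are of all 50600 annotated genes, of which 28329 had no fragment. The 16.0% is 8109 genes, while 12712 genes passed a filter on low counts, with a median level of 23.0 TPM. The order by mean level was Nr4a1, Egr3, Nab2, Nr4a3, Egr1, Nab1, Egr2, Nr4a2 and Egr4, and it ran from 421 to 1.18 TPM. The second place of Egr3 holds for the deposited exon lengths: it came after Nab2 and Nr4a3, in place 4, for counts scaled to library size without length. Place 4 was also its place with a longer exon model, which gives a lower bound for its level. Nr4a2 and Egr4 were the 2 genes below 10 TPM, so the NR4A and EGR families each had 1 member far below its relatives. The places of these genes and their values in each library follow by role.

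**Figure D1:**
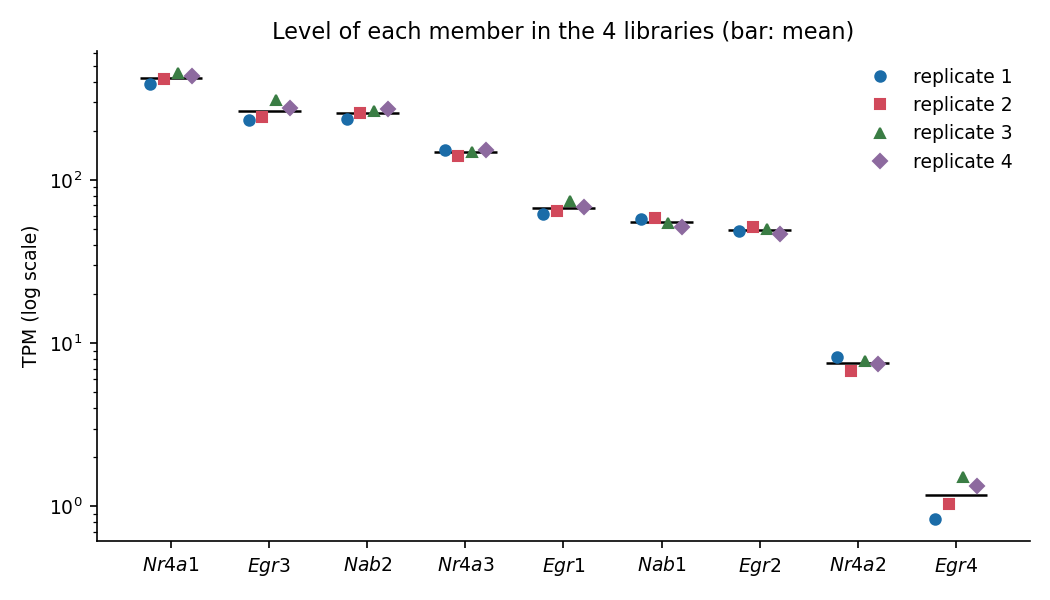
TPM of each gene (log axis) in replicates 1 to 4, drawn as separate symbols, with a bar at the mean. Nr4a1 lies highest, Egr3 and Nab2 overlap near 260 TPM, and Nr4a2 and Egr4 lie apart below 10 TPM.

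Among the receptors, Nr4a1, which encodes NUR77 (ENSMUSG00000023034.6, mm10 chromosome 15, 101266846 to 101274792, plus strand), was at 387, 413, 452 and 433 TPM in replicates 1 to 4. Its mean of 421 ± 27.7 TPM (SD, n = 4) ranked 372nd of all annotated genes. Replicate 1 was lowest and replicate 3 highest, with a 1.17-fold range. Nr4a3, which encodes NOR1 (ENSMUSG00000028341.9, chromosome 4, 48045153 to 48086447, plus strand), was at 152, 140, 148 and 153 TPM, the narrowest relative spread of the 9 genes (SD 4.07% of the mean). Nr4a2, which encodes NURR1 (ENSMUSG00000026826.13, chromosome 2, 57106830 to 57124003, minus strand), was at 8.23, 6.71, 7.79 and 7.41 TPM. That level rested on 422 to 2157 fragments and is well above the detection floor of 3 fragments. The ranges of the 3 receptors did not overlap, and Nr4a1 exceeded Nr4a3 and Nr4a3 exceeded Nr4a2 in all 4 libraries.

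Nr4a1 held 73.0% ± 1.61 of the summed NR4A level (SD, n = 4), Nr4a3 25.7% ± 1.5 and Nr4a2 1.31% ± 0.134. In fragments, not divided by exon length, the shares of Nr4a1 and Nr4a3 were closer, at 53.1% ± 2.00 and 45.3% ± 1.89, because the exons of Nr4a3 span 5987 bases against 2474 for Nr4a1. Replicate 1 gave Nr4a1 its lowest share (70.7%) and both relatives their highest. The summed NR4A level was 548, 559, 608 and 593 TPM in replicates 1 to 4.

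Among the EGR factors, Egr3 (ENSMUSG00000033730.3, chromosome 14, 70077445 to 70080157, plus strand) had the highest level, at 233, 245, 309 and 277 TPM, with a mean of 266 ± 34.0 (SD, n = 4). Replicate 3 exceeded replicate 1 by 1.32-fold. Egr1 (ENSMUSG00000038418.7, chromosome 18, 34859823 to 34864984, plus strand), the founding member of the family, was at 61.5, 64.7, 74.1 and 68.2 TPM. Replicate 1 was again the lowest and replicate 3 the highest. Egr2 (ENSMUSG00000037868.15, chromosome 10, 67535475 to 67542188, plus strand) was at 48.8, 51.6, 50.4 and 46.8 TPM. Its libraries lay in another order, with replicate 2 highest and replicate 4 lowest. Egr4 (ENSMUSG00000071341.4, chromosome 6, 85511121 to 85513589, minus strand) was at 0.840, 1.04, 1.52 and 1.33 TPM, from 32, 176, 46 and 40 fragments. Counting error alone gives a relative SD of 17.7% at 32 fragments, and the 4 libraries had 25.5%.

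The level of Egr3 depends on its gene model. The deposited tables give Egr3 1416 bases of exon, while GENCODE vM21 gives 4406, of which 2457 lie after the end and 242 before the start of the older model. Only the deposited model was counted. Dividing its fragments by the vM21 length gives 85.5 ± 10.9 TPM (SD, n = 4), a lower bound, since fragments in the added exon bases are not in the tables. Nr4a1 also grew, from 2474 to 3509 bases, which gives 297 ± 19.6 TPM in the same way, and the exon length of the other 7 genes did not differ between the annotations. With the deposited model Egr3 held 69.2% ± 1.78 of the summed EGR level (SD, n = 4), Egr1 17.5% ± 0.401, Egr2 13.0% ± 1.43 and Egr4 0.304% ± 0.0485. With vM21 lengths the shares were 41.9% for Egr3, 33.0% for Egr1 and 24.4% for Egr2, and Egr3 was still the highest of the family. The share of Egr3 is then a lower bound as well, and those of its relatives are upper bounds.

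**Figure D2:**
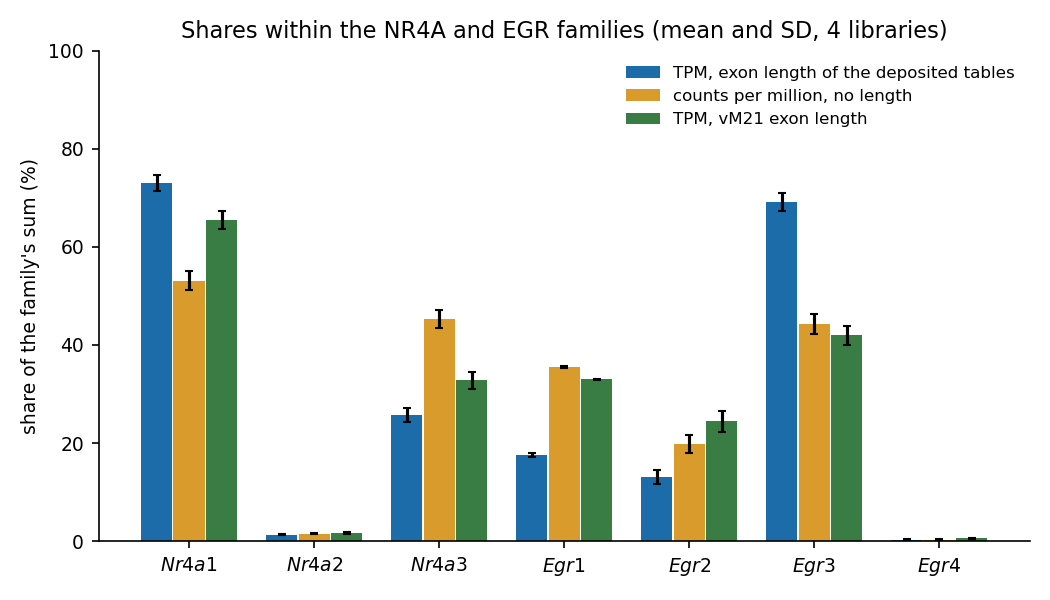
Mean share of each gene in the summed level of its family, in percent, with SD over the 4 libraries as error bars, for TPM with the deposited exon lengths, for counts without length and for TPM with vM21 lengths. Nr4a1 and Egr3 hold the largest share of their families in all 3 sets of bars, by a margin that the length used changes.

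Of the co-repressors, Nab2 (ENSMUSG00000025402.12, chromosome 10, 127660918 to 127668568, minus strand), itself known as an EGR target, was at 236, 258, 264 and 273 TPM. Nab1 (ENSMUSG00000002881.14, chromosome 1, 52457294 to 52500679, minus strand), the more constant family member, was at 57.5, 58.2, 54.6 and 51.7 TPM. Replicate 1 was the lowest for Nab2, and replicate 4 was the highest for Nab2 and the lowest for Nab1. The summed NAB level was 0.853, 0.873, 0.732 and 0.826 times the summed EGR level in replicates 1 to 4. On the log2 scale the ratio was -0.29 ± 0.11 (SD, n = 4). It was 0.22 for counts without length, and 0.63, an upper bound, with vM21 lengths, so which family was the more abundant is not settled by these tables. Exons of Nab2 overlap genes on the opposite strand: 40 bases with Stat6, 151 with Nemp1 and 1050 with the noncoding gene Gm16229. Strand-specific counting keeps these apart, and Gm16229 had 48 fragments in all libraries together.

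All 36 pairs of the 9 genes were compared within libraries on the log2(TPM + 1) scale. In 35 pairs 1 gene was higher in 4 of 4 libraries. Flipping the signs of 4 differences in an exact two-sided permutation test gives p = 0.125 at the least, and each of the 35 pairs reached that value (0.129 after Benjamini-Hochberg adjustment over 36 pairs), so no pair could pass 0.05. Egr3 and Nab2 were the exception: Nab2 was higher in replicates 1 and 2, Egr3 in replicates 3 and 4. Their difference was 0.04 ± 0.13 (SD, n = 4; exact permutation p = 0.75), less than the spread between libraries, and its sign turned without replicate 3 (-0.025) and without division by length (-1.01). With vM21 lengths it was -1.59, a lower bound that leaves the sign unsettled. Egr3 over Nr4a3 also turned in 4 of 4 libraries without length (-1.24), and with vM21 lengths its lower bound was -0.79. The other close neighbours were Egr1 above Nab1 by 0.27 ± 0.17 and Nab1 above Egr2 by 0.16 ± 0.05 on that scale. Nab2 exceeded Nr4a3 by 0.79 ± 0.11, but its counts without length were lower (-0.23). The widest steps between neighbours were Egr2 above Nr4a2 (2.56 ± 0.14) and Nr4a2 above Egr4 (1.98 ± 0.24).

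None of the 9 genes was called as varying between replicates more than genes of similar level. The test compares each gene with a trend of dispersion estimated from these same 4 libraries. A spread that most genes share is therefore not called, and the result does not show that the 9 genes were constant. The edgeR goodness-of-fit test of an intercept-only model called 46 of 12712 genes at an adjusted p under 0.05, which is 0.362%, and 0 of the 9, all of which passed the filter on low counts. The count over all genes was 862 with a common dispersion and 25 without replicate 2, and that among the 9 was 0 in both. At an unadjusted p under 0.05 there was 1 of the 9, against 5.54% of all genes tested. That gene was Egr3, whose residual deviance of 13.8 ranked 139th of 12712. Its adjusted p by edgeR was 0.291. Without replicate 3 the deviance was 4.87 and the edgeR adjusted p 0.999, and over the other alternatives the adjusted p ran from 0.268 to 0.908. The other 8 genes had deviances from 0.673 (Egr2) to 4.99 (Egr1), beside a median of 1.98 over all genes tested.

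**Figure D3:**
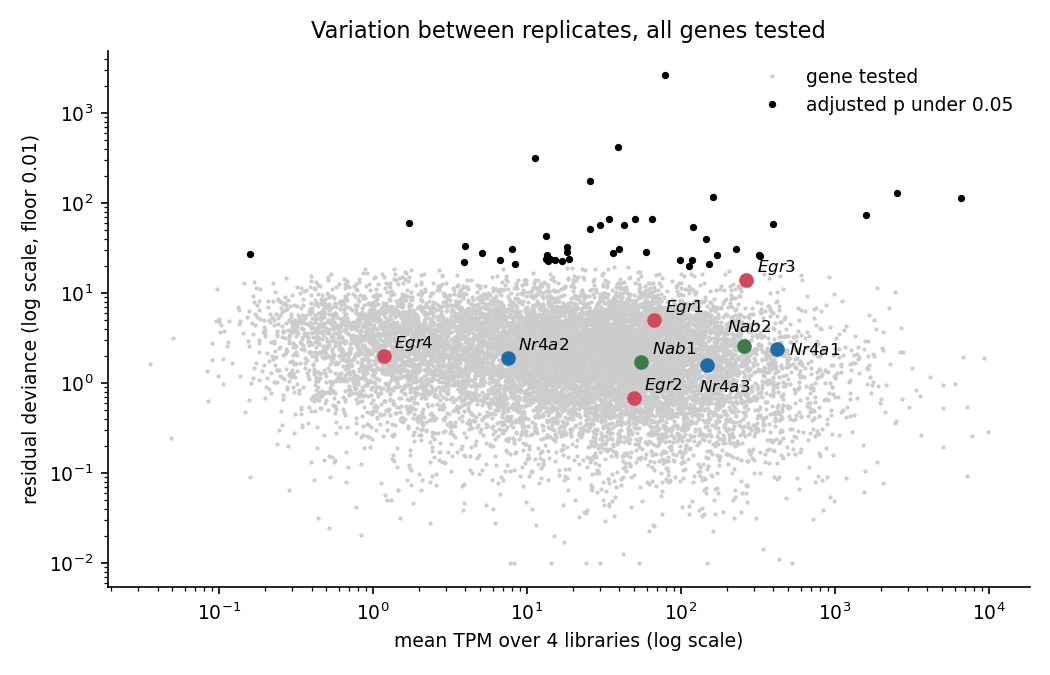
Residual deviance of each of 12712 genes (log axis) against mean TPM (log axis), with the 46 called genes in black and the 9 genes in colour (blue NR4A, red EGR, green NAB). Egr3 lies highest of the 9, below the called genes, and Egr2 lowest.

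Though none of the 9 genes was called as varying, 4 of them ordered the libraries in the same way. Nr4a1, Egr1, Egr3 and Egr4 rose from replicate 1 through replicates 2 and 4 to replicate 3, an order chosen after their values were seen and shown by 6.44% of the genes tested. Egr2, Nr4a2, Nr4a3 and Nab1 each had an order of their own, and Nab2 differed from the 4 in having replicate 4 above replicate 3. The highest library stood above the lowest by 1.17-fold for Nr4a1, 1.21-fold for Egr1, 1.32-fold for Egr3 and 1.80-fold for Egr4. Across genes, deviations of replicate 1 followed GC content more than those of any other library (Spearman's rho -0.353, against 0.087 to 0.204 in the others; 12692 genes, which are not independent). The transcripts of the 4 genes have 55.2% to 68.2% GC, above the median of 50.6% for genes tested. Nab2 (57.3%), Egr2 (54.5%) and Nr4a3 (54.2%), which lay in other orders, were above that median too, and Nab1 and Nr4a2 were below it. GC content thus did not separate the 4 genes from Nab2. With the GC trend of each library removed, 1 of the 4 genes, Egr4, kept the whole order, while in Nr4a1, Egr1 and Egr3 replicate 2 moved below replicate 1. After that removal 6.59% of 12692 genes lay in the order. Replicate 3 was still the highest and replicate 4 the second for all 4. Replicate 3 was then the highest for 25.9% of all genes, and the 4 had been picked for an order that ends with it. The libraries with low Xist, replicates 3 and 4, were thus the higher ones for these genes, and the part of that difference in the result was not tested.

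**Figure D4:**
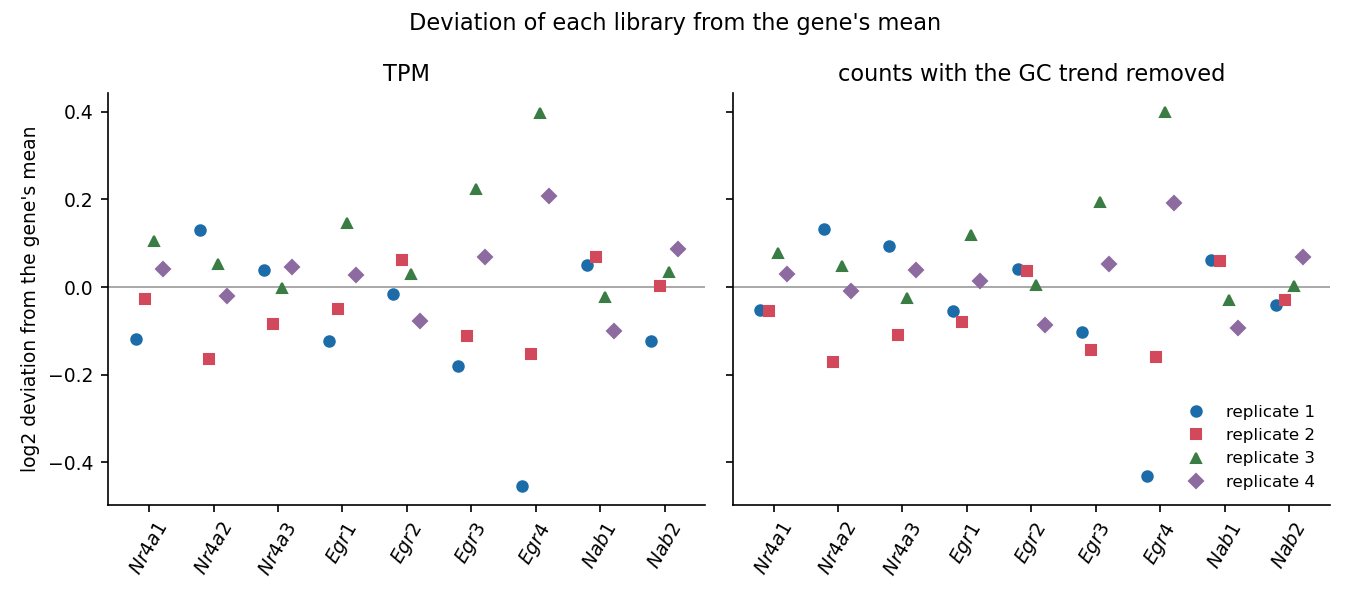
Deviation of each library from the gene's mean on the log2 scale, for TPM (left) and for counts with the GC trend of each library removed (right). Replicate 3 lies at the top for Nr4a1, Egr1, Egr3 and Egr4 in both panels, and the distance between replicates 1 and 2 shrinks for Egr4 and turns for the other 3 on the right.

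Genes with the most similar profiles were sought as those with the smallest root mean square difference of log2(TPM + 1) over the 4 libraries, so that level and order both count. Closest to Egr1 were Ep400, a chromatin remodeller (0.020), and the adhesion receptor gene Adgre5 (0.030), both in the same library order as Egr1. Closest to Nr4a1 were Chd4 (0.059) and the kinase gene Mknk2 (0.062), and closest to Nr4a3 were Btg1, an antiproliferative factor (0.030), and Znrd1 (0.038). Nab1 lay next to Actr10 (0.012) and Setd3 (0.019), Nab2 to Txn2 (0.027) and Trp53 (0.039), and Egr2 to Ttll4 (0.029). Nr4a2 lay next to Wdr45 (0.030) and 4931414P19Rik (0.043), and Egr4 to Gm13563 (0.043) and Lrp1 (0.063). Egr3 had the most distant neighbours, Snrnp200 (0.090) and Ncapd2 (0.092), whose libraries spread less (SD 15.2 and 25.2 TPM, n = 4 each, against 34.0).

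Factors that are known to switch these genes on were present with 1 exception. In every library 14 of 15 such genes reached 10 TPM. Of all annotated genes 8109 reached that level in every library, while 12712 passed the filter on low counts. The same background applies to the counts at 10 TPM in the lists below. Their median was 46.1 TPM beside 23.0 over all genes tested. Nfatc1, a calcineurin-dependent factor, had 182 ± 13.0 TPM (SD, n = 4), Srf 172 ± 7.62, the CREB relative Atf1 119 ± 13.4 and the SRF partner Elk3 67.4 ± 2.83. Nfatc1 was lowest in replicate 1 and highest in replicate 3, as Egr3 was. Srf was highest in replicate 2 and Atf1 in replicate 1, and Elk3, highest in replicate 3, was lowest in replicate 4. Of all genes tested, 34.0% were lowest in replicate 1 and 25.6% were highest in replicate 3. At the low end Mef2a had 10.9 ± 0.403 TPM and Mef2c 0.0800 ± 0.0377.

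Other immediate early genes were uneven. In every library 17 of 24 such genes reached 10 TPM, and Klf4 did not reach 1 TPM in any. Myc had 665 ± 20.8 TPM (SD, n = 4), the AP-1 subunit genes Jund and Junb 578 ± 59.8 and 538 ± 26.3, and Ier2 456 ± 12.0. Nr4a1 was thus close to Ier2 in level. Lowest were the AP-1 gene Fosb (0.657 ± 0.253) and the zinc-finger gene Klf4 (0.637 ± 0.260). The list median was 31.3 TPM, against 148 for the receptors and 58.3 for the EGR factors.

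Genes that EGR2 and EGR3 are known to act on in tolerance and feedback were mostly transcribed, with 11 of 16 reaching 10 TPM in every library and a list median of 71.1 TPM. Many genes without this link reached it too: 8109 in all, while 12712 passed the filter on low counts. Id3, an inhibitor of E proteins, had 513 ± 29.95 TPM (SD, n = 4) and the cell-cycle inhibitor gene Cdkn1a 434 ± 46.7. The inhibitory receptor gene Lag3 had 266 ± 15.1 and Dgkz, which removes diacylglycerol, 220 ± 14.9. Crtam stood at 1.07 ± 0.145 TPM, and Rnf128, the ubiquitin ligase GRAIL of anergic cells, at 0.136 ± 0.0554.

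Of 12 genes linked to NR4A factors in regulatory and exhausted T cells, 7 reached 10 TPM in every library and 3 did not reach 1 TPM in any. Pdcd1, which encodes PD-1, had 407 ± 25.2 TPM (SD, n = 4), the IL-2 receptor gene Il2ra 296 ± 11.02, Ctla4 234 ± 21.9 and the AP-1 factor gene Batf 158 ± 8.64. At the low end were Havcr2 (0.129 ± 0.156 TPM) and Tox2 (0.107 ± 0.139), both without a fragment in replicate 4 and Tox2 also in replicate 3. The list median was 19.2 TPM.

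Partners through which the members act were also measured. RXR receptors can pair with NR4A1 and NR4A2: Rxra had 195 ± 15.5 TPM (SD, n = 4) and Rxrb 106 ± 7.32, while Rxrg had no fragment, where a floor of 3 fragments in the shallowest library leaves room for 0.0931 TPM. All 13 NuRD genes measured reached 10 TPM in every library, with a median of 157 TPM. Rbbp7 had 581 ± 25.8 TPM, the remodelling ATPase gene Chd4, which NAB2 contacts, 426 ± 17.7, Mta2 404 ± 9.22 and Mbd3 398 ± 9.54. Gatad2b (39.9 ± 2.37) and Mta3 (20.9 ± 0.389) were the lowest. No tested gene of any of these lists was called as varying between replicates. At an unadjusted edgeR p under 0.05 there were 2 of 14 tested inducing factors (Atf1 and Mkl1) and 1 of 15 EGR-linked genes (Nrn1). There were also 1 of 10 NR4A-linked genes (Ikzf2), 1 of 13 NuRD genes (Hdac2) and 0 of 24 other immediate early genes. Of all genes tested, 5.54% were under that value.

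**Figure D5:**
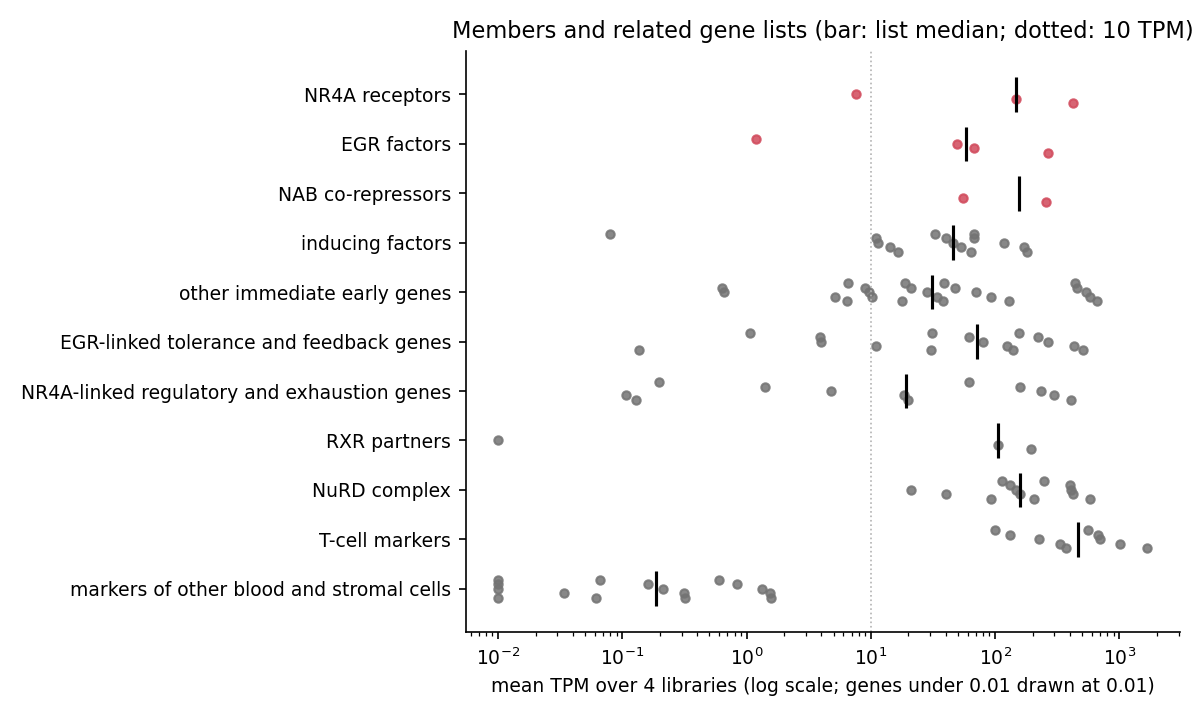
Mean TPM over the 4 libraries (log axis) of each gene of the lists described, with a bar at the list median and a dotted line at 10 TPM; the 9 genes are in red. Markers of other cell types lie to the left of the dotted line, all T-cell and NuRD genes to its right, and the NR4A and EGR families each have 1 gene to its left.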

How the data were processed

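Paired-end RNA sequencing was deposited as 1 table per library. The authors deposited counts of fragments per gene, made with featureCounts 1.4.6-p4 over GENCODE vM13 exons, requiring both ends aligned and using strand setting 2, per the file headers. The alignment names carry the word star2, and the aligner settings are not given in the sources used here. The build is mm10 per the labels. The labels title the assay total RNA-seq but link a protocol named for poly(A)+ libraries. The exon length of each gene comes from the deposited files, per the file headers.

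Symbols came from GENCODE vM21 by gene identifier (50376 of 50600 matched). TPM was computed from counts and deposited exon lengths. Every pair of libraries differed by more than sampling noise (9.67 to 31.0 chi-square units per degree of freedom), so all 4 were kept. Variation was tested with edgeR 4.0.16 (R 4.3.3): filterByExpr with a minimum count of 10, TMM, trended dispersion, residual deviance with 3 degrees of freedom, Benjamini-Hochberg over all genes tested at 0.05. The script was tested on simulated data. A design contrast did not exist, so no quasi-likelihood contrast was fitted. Pair differences used a pseudocount of 1. Other steps used Python 3.11.15 (pandas 2.3.3, numpy 2.4.6, matplotlib 3.10.9, scipy 1.17.1).

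The genes, lists and tests were chosen with earlier results of these data known. Named in each list are the 4 genes of highest and 2 of lowest mean TPM, and for each of the 9 genes the 2 nearest profiles; some genes that this rule names are not reported here. Mkl1, Nrn1, Ikzf2, Hdac2, Zap70, Cd3e, Gm16229 and the genes of other checks were named after their values were seen. Alternatives were other scalings, filters, dispersions, thinning of replicate 2 to 52095688 fragments and leaving out each library. GC removal and vM21 lengths were added after the data were seen.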

Additional observations from a re-analysis of the deposited data

Results flagged for a closer look

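A library stood apart in 2 of 71 sets of 4 library values, by a gap to its nearest neighbour too large for 4 samples, where chance gives about 1 in 20 such sets. Replicate 2 had 273136467 fragments, against 47558517 to 60102919 in the others. Srf was at 160.5 TPM in replicate 1, against 174.7 to 177 in the others. No set of values of the 9 genes, of their family shares or of the differences between neighbours in level was among them.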

How the results depend on the processing

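The number of genes varying between replicates (46) became 862 when all genes shared a common dispersion. Leaving out a library gave 25 (replicate 2) to 40 (replicate 1), and the remaining settings gave 43 to 57. The count among the 9 genes was 0 under every alternative run. For counts without length, shares were 53.1% (Nr4a1), 1.56% (Nr4a2), 45.3% (Nr4a3), 35.5% (Egr1), 19.9% (Egr2) and 44.3% (Egr3), and the NAB to EGR ratio was 0.22 (log2). With vM21 lengths they were 65.6%, 1.67%, 32.8%, 33.0%, 24.4% and 41.9%, with Egr4 at 0.575% and the ratio at 0.63. Both follow from the lengths used. Egr3 minus Nab2 reversed without length (-1.01) and, among values from -0.025 to 0.076 with a library left out, without replicate 3. Nab2 minus Nr4a3 reversed without length (-0.23). With vM21 lengths Egr3 minus Nab2 was -1.59, a lower bound that leaves its sign unsettled. With GC trends removed, 1 of 4 genes kept the library order. Of the 36 pairs, 3 turned without length (Egr3 over Nr4a3 to -1.24 beside those named) and 1 without replicate 3. With vM21 lengths 2 pairs had a negative lower bound (Egr3 over Nab2 and over Nr4a3, -0.79), which does not settle whether they turned. Values of Egr3 and Nr4a1 with vM21 lengths are lower bounds, since fragments in the added exons were not counted. No paired analysis was possible because the labels hold 1 group. Depth limits Egr4 most, at 32 to 176 fragments.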

Other observations

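Few genes lie within 5 kb of the 9. Stat6, the signal transducer of the IL-4 receptor, which overlaps the end of Nab2 on the opposite strand, had 278 ± 15.1 TPM (SD, n = 4), and Nemp1, which overlaps its start, had 45.6 ± 1.85. Nab2 and Stat6 both had their lowest level in replicate 1, at 236 and 255 TPM, and Nemp1 did not, at 46.3 TPM. Ado, 2323 bases beyond Egr2 on the opposite strand, had 47.7 ± 1.24 TPM, close to Egr2 itself. Noncoding neighbours were very low: BB557941 beside Nr4a2 had 10 fragments over the 4 libraries together, and the predicted gene Gm5976 beside Nab1 had 32.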
